A study of Mus musculus with 32 samples.

Results

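The genes described here are 10 genes of the lysosome: the cathepsins Ctss, Ctsb, Ctsd, Ctsl, Ctsz, Ctsh and Ctsc, the asparaginyl endopeptidase Lgmn, the lysosomal membrane protein Lamp1 and the secreted cysteine protease inhibitor Cst3. They were chosen by symbol from a table of 33000 genes, and each symbol had 1 row. Counts came from 32 3'Pool-seq libraries of frontal cortex RNA from 3-month-old mice, either wild-type (WT) or homozygous for the GFAP-IL6 transgene. The paper names C57BL/6 as the strain of the WT mice and names none for the GFAP-IL6 mice. In this line the promoter of the astrocyte gene Gfap drives the cytokine interleukin-6, so the cytokine comes from astrocytes within the brain and is present throughout life rather than given as a dose. Reverse transcription was started from 50, 10, 1 or 0.5 ng of total RNA, with 4 WT and 4 GFAP-IL6 libraries at each input. No agent was given to either genotype.

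Lysosomes are acidic organelles in which cell material and engulfed material are broken down. Cathepsins are their main proteases. Most are papain-like enzymes with a catalytic cysteine, whereas cathepsin D is an aspartic protease that needs no such residue. Cystatin C, the product of Cst3, is secreted and blocks cysteine cathepsins outside the cell. In the brain, microglia are rich in cathepsins, and cathepsin S is known for activity at neutral pH and for cutting the invariant chain (Cd74) during MHC class II antigen presentation.

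The papain-like members share a conserved stretch around the catalytic cysteine, which is what sets them apart from the other members. The reference coding sequence of 30 bases around that cysteine is given for the 6 members in which the pattern was found, with the cysteine codon in capitals (GENCODE vM21, GRCm38, written in the direction of the gene).
Ctss: ggttcttgtggtgccTGCtgggctttcagt
Ctsb: ggctcctgcggctctTGTtgggcatttggg
Ctsl: ggccagtgcgggtctTGTtgggcgtttagc
Ctsz: cagtactgtggttccTGCtgggcccacggc
Ctsh: ggggcctgtggcagcTGCtggactttctct
Ctsc: gaatcttgtggaagcTGCtactcatttgcc

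The Ctss stretch lies in exon 5 at chr3:95545333-95545362, that of Ctsl in exon 5 at chr13:64367063-64367092, that of Ctsz in exon 2 at chr2:174438184-174438213 and that of Ctsh in exon 6 at chr9:90064507-90064536. The stretches of Ctsb and Ctsc each cross an exon junction. Ctss shared 21 of 30 bases with Ctsh, 19 with Ctsb, 19 with Ctsz, 18 with Ctsl and 17 with Ctsc. No such stretch was found in Ctsd, an aspartic protease, or in Lgmn, Lamp1 and Cst3, which are not papain-like. Ctss had 341 codons and Cst3 140. The counted reads came from the 3' ends of the transcripts and not from these stretches.

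The promoters of the members that differed most between genotypes were compared with that of Lamp1, which passed no test between genotypes. RefSeq promoter windows of 300 bases (GRCm38.p6) were found for 8 of the 10 members, with Ctsb and Ctsh missing. Stretches of 160 bases are shown, with capitals marking matches to the motifs listed after them, for Ctss at chr3:95526636-95526795, Ctsc at chr7:88277835-88277994 and Lamp1 at chr8:13159011-13159170, all on the plus strand.
Ctss: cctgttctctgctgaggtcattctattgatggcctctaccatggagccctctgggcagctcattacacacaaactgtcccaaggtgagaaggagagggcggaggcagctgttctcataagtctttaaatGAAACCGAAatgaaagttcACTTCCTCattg
Ctsc: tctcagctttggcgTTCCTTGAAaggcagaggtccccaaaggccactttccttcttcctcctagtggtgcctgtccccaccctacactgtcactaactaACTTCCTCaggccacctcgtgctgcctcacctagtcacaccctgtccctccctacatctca
Lamp1: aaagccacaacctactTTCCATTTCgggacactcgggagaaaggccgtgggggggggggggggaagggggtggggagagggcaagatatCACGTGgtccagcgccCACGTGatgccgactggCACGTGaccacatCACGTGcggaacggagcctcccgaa

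The motifs were searched on both strands. GAGGAAGT, a motif of the myeloid factor PU.1, matched in the windows of Ctss and Ctsc and in 3.20% of 32851 mouse promoter windows. GAAANNGAA, an interferon response element pattern, matched in Ctss and Lamp1 and in 8.56% of all windows. TTCNNNGAA, a STAT pattern, matched in Ctsc and in 8.30%. CACGTG, the E-box bound by the lysosomal gene factor TFEB among others, matched in Ctsd, Ctsl, Lamp1 and Lgmn and in 7.15%. Its extended form TCACGTGA, which contains the E-box, matched in Ctsd and in 0.974%. These matches describe letters in a window, not binding.

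Library totals ran from 261378 to 9840302 counts, and the median library held 3603629 counts at 50 ng and 4463016 at 10 ng. At the smaller inputs the medians were 1457725 (1 ng) and 1428120 (0.5 ng). All 10 members passed the filter on low counts at each input. Il6 had 0 to 1 counts in WT and 4 to 22 in GFAP-IL6 libraries at 50 ng. The groups overlapped at 10 ng (0 to 3 against 2 to 41 counts) and at 1 ng (0 to 13 against 0 to 27). Reads of the transgene and of the endogenous gene were not told apart. At 0.5 ng no library had an Il6 count. Cortical neuron markers such as Snap25 and Syt1 were abundant, with 6435 ± 340 CPM (SD, n = 4) summed over 6 markers in WT at 50 ng, where CPM is the count scaled to a library total of 1e+06. Lymphocyte markers (6 genes) summed to at most 4.62 CPM in any library. The labels do not say that the numbered libraries of a genotype came from separate animals, so p-values measure the spread between these libraries, which may be technical.

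One library stood apart at 50 ng. GFAP-IL6 replicate 4 was lowest of its group for 9 of 10 members at 50 ng and 8 of 10 at 10 ng, Cst3 included. GFAP-IL6 replicate 3 was highest for 9 of 10 at both inputs. The biological coefficient of variation, the spread between libraries fitted over all genes, was 0.214 at 50 ng and 0.130 without replicate 4. In contrast, no other library lowered it below 0.213 when left out. The same coefficient was 0.238 at 10 ng, 0.519 at 1 ng and 0.767 at 0.5 ng. Values without replicate 4 are given where a call turned on it, and for some other results where none did. Where it was the lowest of its group, leaving it out raises the difference of itself.

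Ctss was the member that differed between genotypes at every input. At 50 ng the WT libraries had 199, 157, 185 and 172 CPM and the GFAP-IL6 libraries 587, 546, 694 and 247 CPM. At 10 ng the WT values were 170, 137, 172 and 156 CPM, against 604, 532, 655 and 394 CPM in GFAP-IL6. All GFAP-IL6 libraries lay above all WT libraries at both inputs, and replicate 4 was the lowest of its group in each.

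At 1 ng the WT libraries had 143, 164, 207 and 183 CPM, and the GFAP-IL6 libraries 679, 677, 732 and 455 CPM. At 0.5 ng the WT values were 185, 171, 256 and 136 CPM and those of GFAP-IL6 581, 993, 900 and 559 CPM. Again the groups did not overlap. Ctss thus kept a gap between genotypes down to the smallest input.

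Ctss rose by 1.495 on the log2 scale at 50 ng (SE 0.22, adjusted p = 0.00126) in edgeR's quasi-likelihood test with Benjamini-Hochberg adjustment over all genes tested. This equals 2.82-fold, with a 95% interval of 2.04 to 3.89. The rise was 1.75 at 10 ng (SE 0.15, adjusted p = 1.76e-10), 1.85 at 1 ng (SE 0.19, adjusted p = 2.52e-05) and 1.99 at 0.5 ng (SE 0.24, adjusted p = 0.00115). Without GFAP-IL6 replicate 4 the value at 50 ng was 1.75 (adjusted p = 9.25e-12). Counts summed over the 4 inputs for each genotype and library number gave 1.72 (SE 0.14, adjusted p = 2.24e-08), or 3.31-fold. That sum treats a number as the same RNA at each input, which the labels do not state, and it uses the same libraries as the separate fits.

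**Figure D1:**
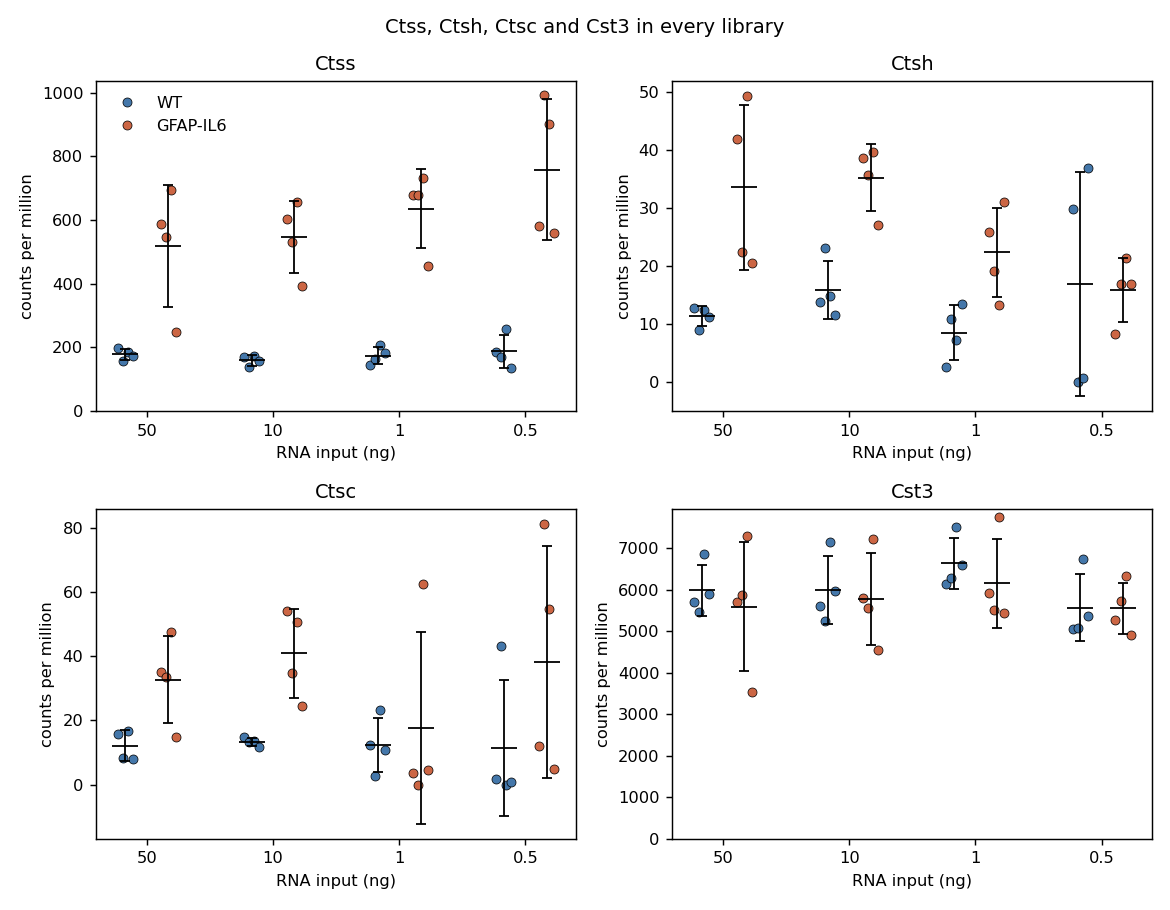
CPM (y axis) of Ctss, Ctsh, Ctsc and Cst3 in each library against RNA input in ng (x axis), with points for WT (blue) and GFAP-IL6 (orange) libraries and bars for the mean and SD of 4. The GFAP-IL6 points of Ctss lie above all WT points at every input, those of Ctsh at 50 and 10 ng and those of Ctsc at 10 ng, while the Cst3 points overlap throughout.

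Of the 10 members, 2 passed an adjusted p of 0.05 at 50 ng (Ctss and Ctsh), where 0.28% of 11773 genes did. At 10 ng 3 passed (Ctss, Ctsh and Ctsc) against 0.332% of 12043 genes. Ctss alone passed at 1 ng, against 0.0323% of 9276 genes, and at 0.5 ng, where it was the single gene called of 8571 (0.0117%). On summed inputs Ctss, Ctsh and Ctsc passed, against 0.468% of 13450 genes. Each called member was higher in GFAP-IL6, and none was called lower. Before adjustment, 4 members had a p under 0.05 at 50 ng, where 5.63% of the genes tested did, and 6 had one at 10 ng, against 7.48%. With less RNA this held for 3 members at 1 ng (3.59%) and 2 at 0.5 ng (2.87%), and on summed inputs for 6 (7.9%).

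The median difference over the members was 0.21 on the log2 scale at 50 ng and 0.37 at 10 ng, while the median over all genes tested was -0.0034 and 0.0034. The members ranged from -0.14 to 1.52 at 50 ng, so that Ctss, Ctsh and Ctsc made up the upper end. Groups did not overlap, with GFAP-IL6 higher, for 2 members at 50 ng (2.17% of all genes tested), 4 at 10 ng (2.77%), 3 at 1 ng (1.68%) and 1 at 0.5 ng (1.47%). In bulk tissue, fewer or more cells of a type and less or more RNA per cell cannot be told apart.

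**Figure D2:**
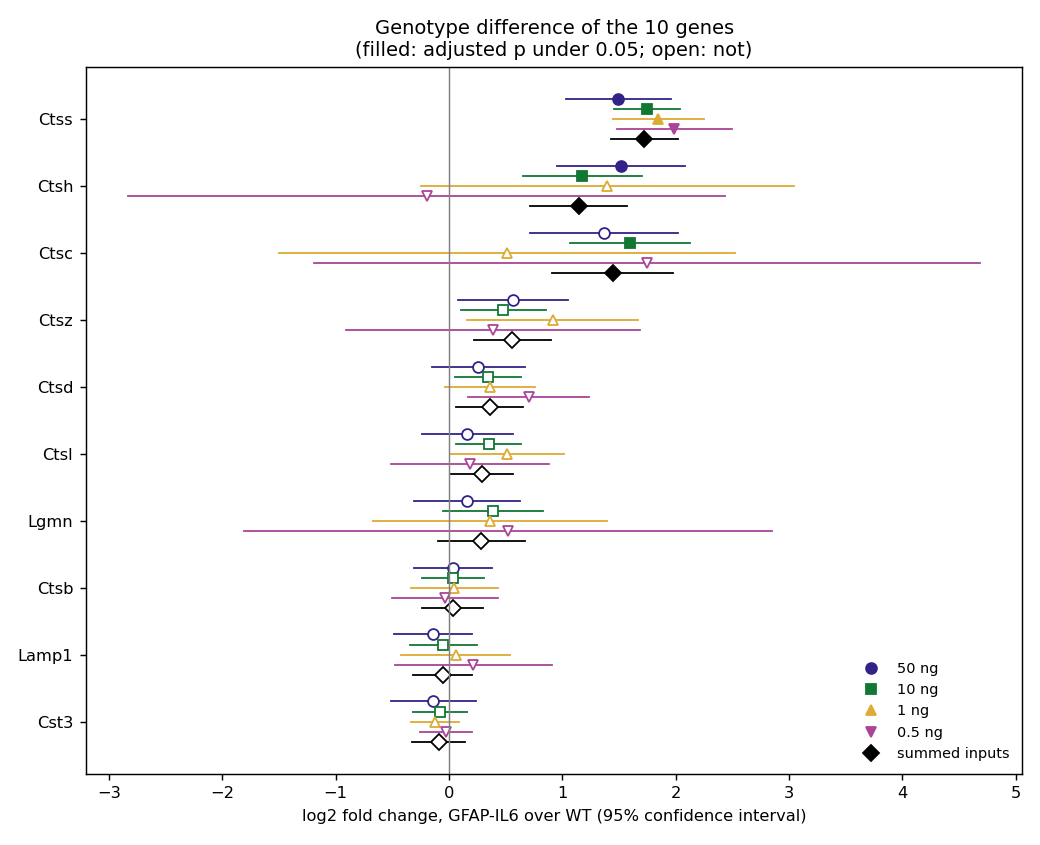
Log2 fold change of GFAP-IL6 over WT (x axis) for each of the 10 genes (y axis), with 95% confidence intervals, at 50, 10, 1 and 0.5 ng and on summed inputs, where filled symbols passed an adjusted p of 0.05. Ctss is filled in all 5 comparisons with values from 1.495 to 1.99, whereas Ctsb, Lamp1 and Cst3 lie near 0 throughout.

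Ctsh encodes cathepsin H, an aminopeptidase of the papain family. At 50 ng it measured 12.7, 9.03, 12.5 and 11.3 CPM in WT and 42.0, 22.4, 49.3 and 20.6 CPM in GFAP-IL6. At 10 ng the values were 13.8, 23.1, 14.9 and 11.6 CPM against 38.6, 35.7, 39.7 and 27.0 CPM. The groups were apart at both inputs.

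Ctsh rose by 1.52 at 50 ng (SE 0.27, adjusted p = 0.0120), by 1.18 at 10 ng (SE 0.26, adjusted p = 0.0238) and by 1.15 on summed inputs (SE 0.21, adjusted p = 0.00375), all by edgeR. At 1 ng the fitted value was 1.40 (adjusted p = 0.997) and at 0.5 ng -0.20 (adjusted p = 0.9999), with 0 to 97 counts per WT library at 0.5 ng. The call was lost without each of WT replicates 2 and 4 and GFAP-IL6 replicates 1 and 3 at 50 ng (values of 1.46, 1.51, 1.38 and 1.31, the highest adjusted p being 0.0858). At 10 ng it was lost in 5 of 8 such fits, without WT replicates 1, 3 and 4 and GFAP-IL6 replicates 1 and 2, at values from 1.05 to 1.16.

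Ctsc encodes cathepsin C, also called dipeptidyl peptidase I, which activates serine proteases of immune cells. Its WT libraries at 50 ng had 15.8, 8.27, 16.7 and 7.83 CPM and its GFAP-IL6 libraries 35.0, 33.6, 47.7 and 14.7 CPM. The groups overlapped there through replicate 4. At 10 ng they did not, with 14.8, 13.2, 13.6 and 11.6 CPM in WT against 54.1, 34.8, 50.6 and 24.5 CPM in GFAP-IL6.

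The fitted difference of Ctsc was 1.37 at 50 ng (SE 0.32), which missed the threshold (adjusted p = 0.0874). It was 1.68 without GFAP-IL6 replicate 4, which passed (adjusted p = 5.92e-05). With all libraries kept it also passed with the replicate number as a block (1.29, adjusted p = 0.00401), by DESeq2 (1.39, adjusted p = 0.0254) and in edgeR without the filter on low counts (1.38, adjusted p = 5.49e-05). The block pairs WT and GFAP-IL6 libraries of the same number, a pairing that the labels do not state. Ctsc rose by 1.598 at 10 ng (SE 0.26, adjusted p = 0.000355) and by 1.44 on summed inputs (SE 0.26, adjusted p = 0.00371). In a single fit of all 32 libraries, whose spread includes the low inputs, the calls at 10 ng of Ctsc (1.596, adjusted p = 0.99998) and Ctsh (1.14, adjusted p = 0.99998) and that of Ctsh at 50 ng (1.54, adjusted p = 0.99998) were lost. At the low inputs single libraries carried much of Ctsc. At 1 ng 1 GFAP-IL6 library had 62.4 CPM (112 counts) while the others had 0 to 4.64 CPM, and 1 WT library at 0.5 ng had 43.3 CPM (20 counts) while the others had at most 1.66 CPM. Its 95% interval at 0.5 ng ran from -1.19 to 4.68 on the log2 scale, so that neither a fall nor a large rise was detectable at this depth. A lincRNA on the opposite strand, Gm26522, overlaps Ctsc by 4743 bases but had 0 CPM in WT at every input and at most 0.0576 CPM on average in GFAP-IL6.

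Ctsz encodes cathepsin Z, a carboxypeptidase. At 50 ng it was 57.0 ± 15.1 CPM in WT against 87.6 ± 29.4 CPM in GFAP-IL6 (SD, n = 4). The difference was 0.57 at 50 ng (95% interval 0.082 to 1.05, adjusted p = 0.833), 0.48 at 10 ng (adjusted p = 0.530) and 0.92 at 1 ng (adjusted p = 0.997). At 1 ng the WT libraries had 45.8, 35.5, 41.0 and 45.4 CPM and the GFAP-IL6 libraries 63.4, 72.7, 118 and 69.3 CPM, without overlap. On summed inputs the value was 0.56 (95% interval 0.22 to 0.90, adjusted p = 0.207). Without GFAP-IL6 replicate 4 Ctsz passed at 50 ng (0.80, adjusted p = 0.00308) and on summed inputs (0.68, adjusted p = 0.0414). With all libraries and the replicate number as a block it passed on summed inputs as well (0.54, adjusted p = 0.0191). The labels do not state that WT and GFAP-IL6 libraries are paired by number.

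Ctsd, the aspartic protease cathepsin D, is made by neurons as well as glia. At 50 ng it measured 322, 332, 506 and 343 CPM in WT and 482, 449, 624 and 291 CPM in GFAP-IL6. WT replicate 3 lay among the GFAP-IL6 values and GFAP-IL6 replicate 4 below all WT values. The difference was 0.26 at 50 ng (adjusted p = 0.837) and 0.45 without GFAP-IL6 replicate 4 (adjusted p = 0.136). It was 0.35 at 10 ng (adjusted p = 0.577), 0.36 at 1 ng (adjusted p = 0.997) and 0.70 at 0.5 ng (adjusted p = 0.9999). On summed inputs it was 0.36, with a 95% interval of 0.064 to 0.66 (adjusted p = 0.525).

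Ctsl encodes cathepsin L, an endopeptidase of broad specificity. At 10 ng its libraries had 139, 154, 154 and 141 CPM in WT and 210, 178, 216 and 162 CPM in GFAP-IL6, which did not overlap. The fitted difference was 0.35 (95% interval 0.063 to 0.64, adjusted p = 0.555). At 50 ng, where replicate 4 had 114 CPM, it was 0.16 (adjusted p = 0.872), and 0.38 without that library (adjusted p = 0.155). On summed inputs it was 0.29 (95% interval 0.015 to 0.56, adjusted p = 0.613).

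Ctsb, cathepsin B, cuts proteins both within the chain and from the end. Its levels were 460 ± 85.6 CPM in WT and 482 ± 82.4 CPM in GFAP-IL6 at 50 ng. On summed inputs the difference was 0.032, with a 95% interval of -0.24 to 0.30 (adjusted p = 0.970). The interval leaves room for at most a 1.23-fold rise, below every 95% interval of Ctss. Ctsb overlaps Fdft1 on the opposite strand by 774 bases at its 3' end, where the reads fall, so reads of the pair may not be fully separate. Fdft1 had 33.2 CPM in WT at 50 ng.

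Lgmn encodes legumain, which cleaves after asparagine and processes other cathepsins. It was 32.2 ± 4.66 CPM in WT and 36.2 ± 11.6 CPM in GFAP-IL6 at 50 ng. The values of GFAP-IL6 were 22.6, 30.8, 43.6 and 47.9 CPM, and here replicate 4 was the highest and not the lowest. On summed inputs the difference was 0.29 (95% interval -0.099 to 0.67, adjusted p = 0.727).

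Lamp1 is an abundant glycoprotein of the lysosomal membrane and no protease. It measured 256 ± 16.8 CPM in WT and 238 ± 45.9 CPM in GFAP-IL6 at 50 ng. The summed difference was -0.053 (95% interval -0.31 to 0.21, adjusted p = 0.942). Grtp1, on the opposite strand, overlaps it by 3317 bases and had 6.78 CPM in WT at 50 ng.

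Cst3, the inhibitor, had 5711, 5469, 6867 and 5896 CPM in WT and 5696, 5864, 7281 and 3524 CPM in GFAP-IL6 at 50 ng. At 10 ng the values were 5609, 5238, 7147 and 5974 CPM against 5797, 5550, 7226 and 4535 CPM. The groups overlapped at every input. The difference was -0.14 at 50 ng (adjusted p = 0.888), -0.083 at 10 ng (adjusted p = 0.894), -0.12 at 1 ng (adjusted p = 0.997) and -0.029 at 0.5 ng (adjusted p = 0.9999).

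On summed inputs Cst3 differed by -0.091, with a 95% interval of -0.33 to 0.14 (adjusted p = 0.862). This interval covers a 0.797-fold to 1.11-fold level. WT replicate 3, the highest WT library of Cst3 at each input, also held 3003 to 3355 CPM of Ttr, a choroid plexus gene, against 25.5 to 335 CPM in the other 28 libraries. Without it the summed value of Cst3 was -0.046 (adjusted p = 0.957), and without GFAP-IL6 replicate 4 it was 0.0071 (adjusted p = 0.994).

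**Figure D3:**
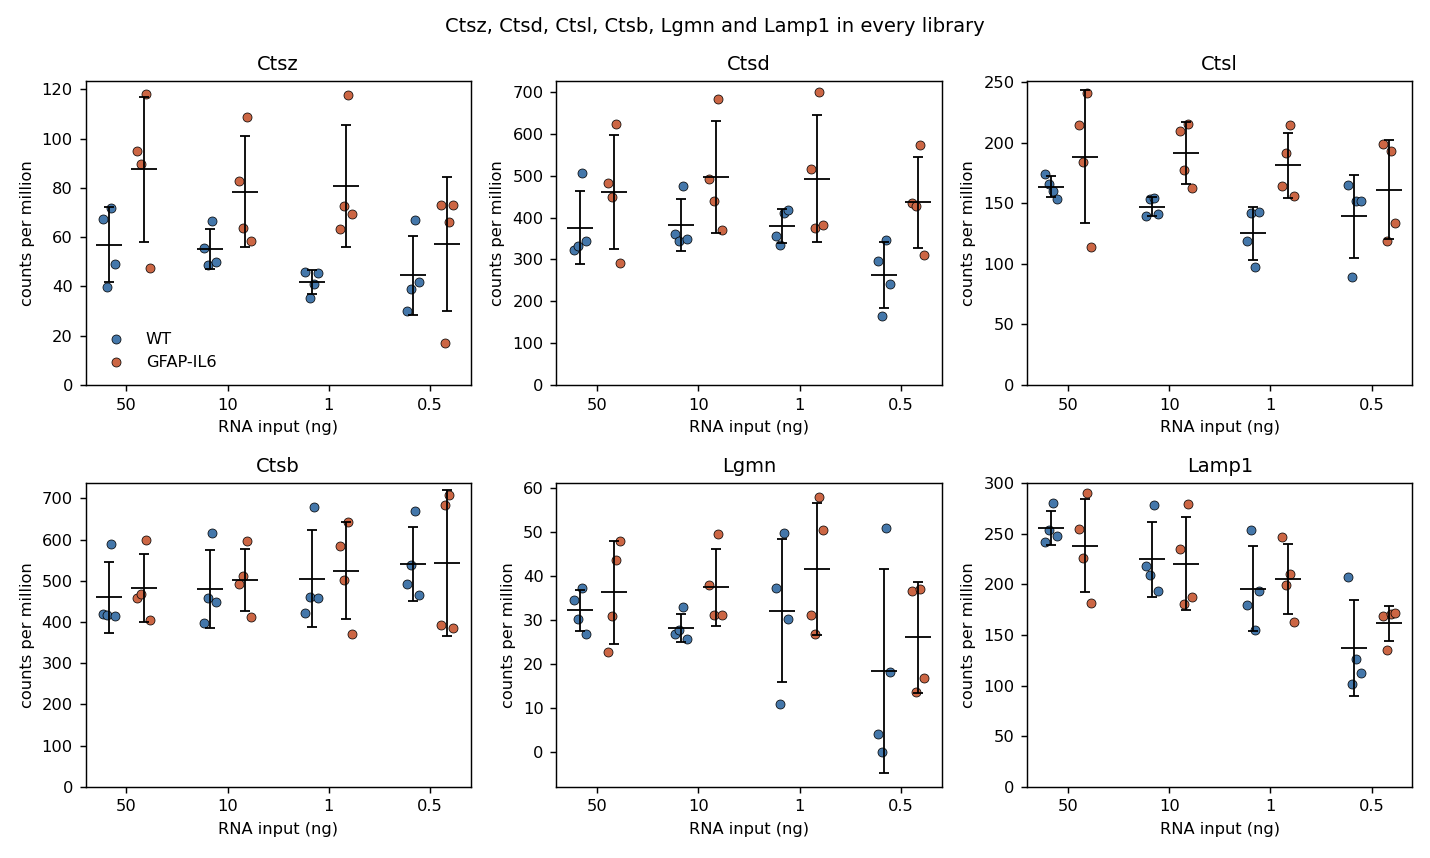
CPM (y axis) of Ctsz, Ctsd, Ctsl, Ctsb, Lgmn and Lamp1 in each library against RNA input in ng (x axis), with points for WT (blue) and GFAP-IL6 (orange) libraries and bars for the mean and SD of 4. None of the 6 genes passed the test at any input, and the 2 groups overlap except for Ctsl at 10 and 1 ng and Ctsz at 1 ng.

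Ctss was then set against each other member within a library, which needs no scaling between libraries. The measure was log2 of the Ctss count over the member's count, after 0.5 was added to each. Genotypes were compared by a two-sided exact permutation test of 4 against 4, whose smallest p is 0.0286. There were 45 such comparisons, 9 members by 4 inputs and the mean over inputs, without adjustment over them, so each p is a description of whether the groups were apart.

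Relative to the inhibitor, Ctss was higher in GFAP-IL6 by 1.59 on the log2 scale at 50 ng and by 1.82 at 10 ng. The value was 1.97 at 1 ng and 2.004 at 0.5 ng (exact permutation p = 0.0286 for each input). As a mean over inputs the ratio of Ctss to Cst3 was 0.0309, 0.0287, 0.0287 and 0.0271 in WT and 0.108, 0.118, 0.104 and 0.0873 in GFAP-IL6. The spread within a genotype was small beside the gap, replicate 4 included. This was a 3.60-fold difference in the ratio.

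Relative to Ctsb, Ctsd, Ctsl, Ctsz and Lamp1, Ctss was higher in GFAP-IL6 at every input without overlap (exact permutation p = 0.0286 each). The mean over inputs was 1.73 for Ctsb, 1.71 for Lamp1, 1.45 for Ctsl, 1.34 for Ctsd and 1.22 for Ctsz. Thus the rise of Ctss exceeded the change of these members. For Lgmn the ratio was 1.38 higher at 10 ng (exact permutation p = 0.0286), but the groups overlapped at the other inputs and the mean over inputs of 1.13 had an exact permutation p of 0.0571.

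Relative to Ctsc the groups overlapped at both high inputs, and relative to Ctsh they overlapped at 50 ng but not at 10 ng. Ctss over Ctsc was 0.061 higher in GFAP-IL6 at 50 ng (exact permutation p = 0.800) and 0.21 higher at 10 ng (exact permutation p = 0.200). The log2 ratio was 3.94 ± 0.46 in WT and 4.00 ± 0.096 in GFAP-IL6 at 50 ng (SD, n = 4). Ctss over Ctsh differed by -0.012 at 50 ng (exact permutation p = 1) and by 0.58 at 10 ng (exact permutation p = 0.0286). At 1 and 0.5 ng the SDs of these 2 ratios ran from 0.448 to 3.12, and no difference was detectable. These p-values do not show that the 3 genes changed by the same amount.

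**Figure D4:**
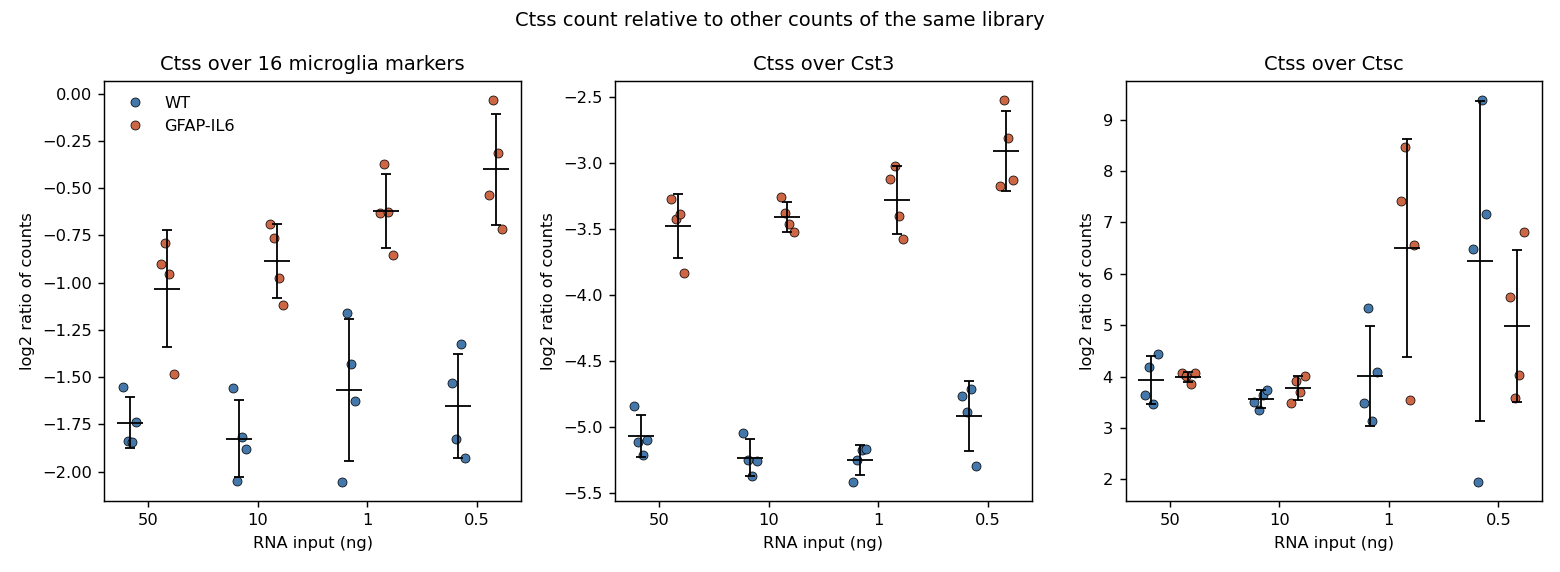
Log2 ratio of the Ctss count to the summed count of 16 microglia markers, to Cst3 and to Ctsc in the same library (y axes) against RNA input in ng (x axis), with points for WT (blue) and GFAP-IL6 (orange) libraries and bars for the mean and SD of 4. The first 2 ratios are higher in every GFAP-IL6 library than in any WT library of the same input, whereas those to Ctsc overlap at each input.

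The summed level of microglia markers moved with genotype beside Ctss, though not each marker did. The 16 markers summed to 596 ± 46.3 CPM in WT and 1020 ± 274 CPM in GFAP-IL6 at 50 ng, and to 563 ± 44.4 against 1005 ± 195 CPM at 10 ng (SD, n = 4), without overlap at any input. At 50 ng 3 of the 16 passed the test (Itgam, C1qb and C1qc) and at 10 ng 5 (Trem2, Aif1, Tyrobp, C1qb and C1qc), all higher. The median difference of the 16 was 0.71 at 50 ng and 0.80 at 10 ng. Fitted values were above 0 for 14 of 16 at 50 ng, 15 at 10 ng and 14 on summed inputs. P2ry12, Siglech and Gpr34 had no unadjusted p under 0.05 in edgeR at any input or on summed inputs. On summed inputs C1qb, a complement subunit, rose by 1.14 (SE 0.15, adjusted p = 7.04e-05) and Trem2, a microglial lipid receptor, by 1.06 (SE 0.19, adjusted p = 0.00323).

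Itgam, an integrin chain of myeloid cells, rose by 2.26 at 50 ng (SE 0.31, adjusted p = 0.000614 by edgeR), where Ctss rose by 1.495. On summed inputs it rose by 1.77 (SE 0.26, adjusted p = 0.000252), close to the 1.72 of Ctss. At 10 ng its value of 1.38 missed the threshold (adjusted p = 0.0606) and lay below the 1.75 of Ctss. It was also below Ctss at 1 ng (1.35 against 1.85) and at 0.5 ng (1.87 against 1.99). Ctss was also set against the sum of the list. Its count over the summed marker count was 0.71 higher in GFAP-IL6 on the log2 scale at 50 ng and 0.94 higher at 10 ng. At 1 ng the value was 0.95 and at 0.5 ng 1.25 (exact permutation p = 0.0286 each, 5 comparisons with the mean over inputs). At 50 ng the ratio was 0.341, 0.280, 0.279 and 0.300 in WT and 0.535, 0.578, 0.516 and 0.357 in GFAP-IL6. Replicate 4 lay just above the WT range there. As a mean over inputs the difference was 0.96, or 1.95-fold, and 1.07 without replicate 4. How much of the change in Ctss goes with more microglia was not tested.

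Other cell types were checked in the same way. Astrocyte markers (6 genes) summed to 1459 ± 42.9 CPM in WT and 2066 ± 850 CPM in GFAP-IL6 at 50 ng. The GFAP-IL6 libraries ran from 1552 to 3336 CPM there, and the groups did not overlap at any of the 4 inputs. At 50 ng 1 of 6 was called, Gfap, which rose by 2.20 (SE 0.27, adjusted p = 0.000113). Endothelial markers (4 genes) summed to 20.7 ± 3.13 against 45.8 ± 24.0 CPM at 50 ng, with GFAP-IL6 libraries from 32.7 to 81.7 CPM. Their groups were apart at 50 ng and overlapped at the other inputs. Of these 4 genes 2 were tested by edgeR at 50 ng, Flt1 (1.14, adjusted p = 0.187) and Cldn5 (0.64, adjusted p = 0.836). No endothelial marker was called by edgeR or DESeq2 at any input or on summed inputs. On summed inputs 3 (Pecam1, Flt1 and Cldn5) had an unadjusted p under 0.05 in edgeR. Markers of blood monocytes, border macrophages and granulocytes (8 genes) summed to 5.84 to 10.5 CPM in WT and 6.09 to 16.8 CPM in GFAP-IL6 at 50 ng, so that their groups overlapped at low levels. No single gene of these 8 passed the filter at 50 ng. Markers of neurons (6), oligodendrocytes (4), and choroid plexus and red cells (3) had none called at any input, with medians of -0.034, -0.13 and -0.099 on summed inputs. The part of astrocytes or vessels in the cathepsin values was not tested.

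The genes whose pattern over the 16 libraries at 50 and 10 ng was most like that of Ctss, by Pearson's r of log2(CPM + 1) among 11610 other genes, were Tmem176a (r = 0.977), Lrg1 (0.972), Lyz2 (0.972), C1qc (0.970) and Ly86 (0.963). These r values span both genotypes, which form separate clusters, and share library and depth. Of the members Ctsc was closest (r = 0.946, rank 12), followed by Ctsh (0.889, rank 29) and Ctsz (0.813, rank 53). Cst3 (0.161) and Lamp1 (0.109) were far down. Within the 8 GFAP-IL6 libraries alone, however, r with Ctss was 0.979 for Ctsl, 0.967 for Cst3, 0.956 for Ctsc and 0.926 for Ctsd, against 0.424, 0.478, 0.365 and 0.272 within WT. It was 0.903 for Ctsz, 0.809 for Ctsb, 0.802 for Ctsh, 0.771 for Lamp1 and -0.163 for Lgmn within GFAP-IL6, against 0.709, 0.152, -0.424, 0.562 and 0.647 within WT. Replicates 3 and 4 mark the high and low ends of the GFAP-IL6 group in nearly all of these genes.

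Other genes of the lysosome showed few differences. Of 7 other cathepsins 4 were tested on summed inputs and none passed in edgeR or DESeq2, with 0 at an unadjusted p under 0.05. Their median was -0.14, beside 0.0097 over all genes. Ctsa, a carboxypeptidase that protects lysosomal glycosidases, differed by 0.17 (adjusted p = 0.788), and Ctso by -0.13 (adjusted p = 0.866). Of 7 other lysosomal peptidases 5 were tested and none passed in either tool, with 0 at an unadjusted p under 0.05. Tpp1, the tripeptidyl peptidase lost in a childhood ceroid lipofuscinosis, differed by 0.13 (adjusted p = 0.842), and Cpq by 0.31 (adjusted p = 0.739).

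Among 9 other inhibitors of cysteine proteases Cst7 passed. Cst7 encodes cystatin F, which is targeted to the endolysosome and inhibits cathepsin C. Its counts at 10 ng were 1, 0, 2 and 0 in WT and 26, 7, 62 and 61 in GFAP-IL6 (adjusted p = 0.000123 by edgeR). At 50 ng it was below the filter of edgeR but was called by DESeq2, with 0 to 6 counts in WT and 11 to 31 in GFAP-IL6. At 0.5 ng the GFAP-IL6 libraries had 0 counts. Thus one cystatin was called higher while Cst3 was not, though the difference between the 2 genes was not tested.

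Of 31 lysosomal hydrolases and cofactors 29 were tested on summed inputs and 1 passed in edgeR. Lyz2, the lysozyme of macrophages, rose by 1.57 (SE 0.21, adjusted p = 6.95e-05), from 19.1 ± 3.29 to 51.0 ± 17.1 CPM at 50 ng. It has a close copy in the genome, so its count is uncertain. The median of the list was 0.061. All 11 other lysosomal membrane proteins were tested, and none passed in edgeR or DESeq2, with 2 (Cd68 and Laptm5) at an unadjusted p under 0.05. Cd63 differed by 0.29 (adjusted p = 0.687) and Laptm4a by -0.021 (adjusted p = 0.980).

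The vacuolar ATPase acidifies the lysosome. Of its 17 listed genes 16 were tested, and none passed in either tool, with 0 at an unadjusted p under 0.05. Their median was -0.16 on summed inputs, and 2 of 16 fitted values were above 0, against 51.4% of all genes. Atp6v1g2 differed by -0.19 (adjusted p = 0.727) and Atp6v1e1 by -0.18 (adjusted p = 0.727). Of 8 genes for sorting of lysosomal enzymes and for factors such as Tfeb none passed in either tool, with 0 at an unadjusted p under 0.05. Their median was -0.024, with Sort1 at -0.016 (adjusted p = 0.988) and Gnptg at -0.21 (adjusted p = 0.727).

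Of 7 genes of the MHC class II pathway, which cathepsin S serves, 5 were tested on summed inputs and none passed in edgeR, with 3 (H2-Aa, H2-Ab1 and H2-Eb1) at an unadjusted p under 0.05. DESeq2 called 2 of them, H2-Aa and H2-Ab1. On summed inputs H2-Aa differed by 1.16 (95% interval 0.51 to 1.81, adjusted p = 0.128 by edgeR). At 50 ng the value was 0.73 (adjusted p = 0.835), with 3.34 to 7.52 CPM in WT and 3.76 to 13.4 CPM in GFAP-IL6. It was 0.51 at 10 ng (adjusted p = 0.814) and 3.33 at 0.5 ng (95% interval 0.47 to 6.18, adjusted p = 0.9999). At 0.5 ng the GFAP-IL6 libraries ran from 4.18 to 98.3 CPM and those of WT from 0 to 10.6 CPM. H2-DMa differed by -0.16 (adjusted p = 0.872). Cd74, the substrate of cathepsin S in this pathway, had 0 to 2 counts in WT and 2 to 3 in GFAP-IL6 libraries at 50 ng, so no difference was detectable at this depth.

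The study tested how well small inputs keep expression values, so the members were also compared between inputs. Whether the genotype difference changed with input was tested as an interaction against 50 ng over all 32 libraries. No member passed at 10, 1 or 0.5 ng by edgeR or by limma's voom with input weights, and 0 had an unadjusted p under 0.05 in edgeR. Of all 12164 genes 0% passed at 10 and 1 ng and 0.197% at 0.5 ng, and 0.00822%, 2.74% and 10.7% had an unadjusted p under 0.05. For Ctss the interaction was 0.24 at 10 ng, with a 95% interval from -0.36 to 0.84, and 0.33 at 1 ng, with one from -0.28 to 0.94. At 0.5 ng it was 0.46 (95% interval -0.15 to 1.06, adjusted p = 0.662). For Ctsh at 0.5 ng it was -1.80, with an interval from -3.71 to 0.10 (adjusted p = 0.505). The biological coefficient of variation of this fit was 0.526, against 0.214 and 0.238 in the separate fits at 50 and 10 ng. With 0.00822% of genes under an unadjusted p of 0.05, edgeR's test at 10 ng could hardly show a change in any member. This holds for Ctss too, so an equal difference at 50 and 10 ng is not concluded. The spread at low input also allows large changes in the scarcer members to go unseen.

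Input itself moved 1 of 10 members past the threshold at 0.5 ng without a replicate block, where 6.72% of 12164 genes passed. A count of 1 in 10 does not set the members apart from genes at large. Averaged over genotypes, this member, Lamp1, fell by 0.65 on the log2 scale from 50 to 0.5 ng (SE 0.15, adjusted p = 0.00435). The mean of Lamp1 was 256 CPM in WT and 238 CPM in GFAP-IL6 at 50 ng, against 137 and 162 CPM at 0.5 ng. Without the libraries numbered 3 the value was -0.56 and missed the threshold (adjusted p = 0.0522), as it did by voom (-0.63, adjusted p = 0.0815). At 10 and 1 ng no member passed by edgeR or by voom, where 0% and 0.822% of genes did. Cst3 alone had an unadjusted p under 0.05 at 1 ng (8.25% of all genes) and none had at 10 ng (0.534%), against Ctss and Lamp1 at 0.5 ng (20% of all genes). Ctss differed by 0.36 at 0.5 ng (95% interval 0.058 to 0.66, adjusted p = 0.153). With genotype and replicate number as a block, Cst3 passed at 1 ng (0.20 higher, adjusted p = 0.0295) and Ctss at 0.5 ng (0.38 higher, adjusted p = 0.0247), beside Lamp1.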

How the data were processed

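Frontal cortex RNA of WT and GFAP-IL6 mice was profiled by 3'Pool-seq, in which an indexed oligo-dT primer marks each sample before pooling and reads come from the 3' ends. The authors trimmed poly(A), aligned reads with STAR (version 2.4 in the submitters' notes) to mm10 and counted uniquely aligned reads per gene with featureCounts. The deposited values are raw counts, not normalized, without molecular identifiers. The strand setting is not given in the sources used here. The authors' gene length column was not used.

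Totals ranged from 261378 to 9840302 counts, and intervals cover counting and library spread only as far as 4 libraries per group allow. CPM is the count scaled to a library total of 1e+06. It was used for display, with levels compared between genotypes and not between genes. Groups came from the genotype and input in the labels. edgeR 4.0.16 (TMM scaling, filterByExpr, quasi-likelihood test, Benjamini-Hochberg over all genes tested) was fitted at each input, on sums over inputs and, for interaction and input, over 32 libraries. A gene was called at an adjusted p under 0.05. Intervals are at the 95% level. Ratios used a pseudocount of 0.5 counts and an exact permutation test in scipy 1.17.1. Alternatives were DESeq2 1.42.0 as test or scaling, no filter, a replicate block, a single fit, limma 3.58.1 with voom, a pseudocount of 5 counts and each library left out. The fits were tested on simulated data.

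The 10 members, the gene lists and the tests were chosen with earlier results of these data known. Named genes were all members, in each list those called at 50 ng, 10 ng or on summed inputs (else up to 2 of highest CPM), and the 5 most like Ctss. Others named for an unadjusted p, and Cd74, were chosen after their values were seen. Gene positions are those of GENCODE vM21 on GRCm38.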

Additional observations from a re-analysis of the deposited data

Results flagged for a closer look

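In 80 groups of 4 libraries, 10 genes by 8 groups, a library lying far from its 3 neighbours (a gap past Dixon's 95% critical share of the group's range) was found 8 times, where chance flags about 1 in 20 groups. WT replicate 3 was high for Ctsb at 50 ng (588 CPM against 415 to 419) and at 1 ng (679 against 422 to 461). It was also high for Ctsd at 50 ng (506 CPM against 322 to 343) and at 10 ng (475 against 343 to 361). GFAP-IL6 replicate 2 was low at 0.5 ng for Ctsz (16.9 CPM against 66.3 to 73.1) and Lamp1 (136 against 169 to 172). Ctsc stood out in GFAP-IL6 replicate 3 at 1 ng (62.4 CPM against 0 to 4.64) and in WT replicate 2 at 0.5 ng (43.3 CPM against 0 to 1.66). No member's genotype difference was flagged as changing between inputs, though at 10 ng edgeR's test could hardly show such a change.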

How the results depend on the processing

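Ctss kept its direction and its call at each input and on summed inputs under all alternatives run, with log2 differences from 1.36 to 1.75 at 50 ng, 1.67 to 1.88 at 10 ng, 1.76 to 1.98 at 1 ng, 1.85 to 2.13 at 0.5 ng and 1.63 to 1.87 on summed inputs when each library was left out. The number of members called ranged from 1 to 4 at 50 ng when each library was left out, and Ctsc was called at 50 ng under the replicate block, DESeq2 and no filter. A single fit of all libraries called 1 member at 50 ng (Ctss, with Ctsh lost), 1 at 10 ng (Ctss, with Ctsh and Ctsc lost) and 2 at 0.5 ng (Ctss and Ctsd). Input effects called 1 member at 1 ng (Cst3) and 2 at 0.5 ng (Lamp1 and Ctss) under the block, 0 at 0.5 ng with voom, and 0 to 1 at 0.5 ng when each number was left out. With a pseudocount of 5 the ratio of Ctss to Lgmn was apart between genotypes at 1 ng (1.44) and as a mean over inputs (1.32), and the ratios to Ctsh at 50 ng (0.084) and to Ctsc at 0.5 ng (0.11) changed sign. For results with such changes the cause was not tested.

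Signs also turned, with no call involved, for Ctsc at 1 ng (-0.67) and Ctsh at 0.5 ng (1.15) under the block, for the Ctsh interaction at 1 ng under the block (0.031) and voom (0.090), for the Ctss input effect at 10 ng with voom (0.016) and for the Cst3 input effect at 0.5 ng without the filter (-0.027). Leaving out each library turned the sign of 21 results, none of them called. Ctsb ranged from -0.050 to 0.17 at 50 ng, -0.047 to 0.14 at 10 ng, -0.035 to 0.18 at 1 ng, -0.18 to 0.089 at 0.5 ng and -0.066 to 0.13 on summed inputs. Cst3 ranged from -0.25 to 0.049 at 50 ng, -0.18 to 0.014 at 10 ng, -0.082 to 0.036 at 0.5 ng and -0.20 to 0.0071 on summed inputs. Lamp1 ranged from -0.16 to 0.029 at 10 ng, -0.067 to 0.21 at 1 ng and -0.13 to 0.021 on summed inputs. Ctsc ranged from -1.86 to 0.92 at 1 ng and Ctsh from -0.60 to 0.54 at 0.5 ng. The Ctsh interaction at 1 ng ranged from -0.45 to 0.18, the Ctss input effect at 10 ng from -0.084 to 0.0059 and the Cst3 input effect at 0.5 ng from -0.076 to 0.036. Ratios ranged from -0.22 to 0.11 to Ctsh at 50 ng, -0.35 to 1.62 to Ctsh at 0.5 ng, -0.097 to 0.23 to Ctsc at 50 ng and -0.27 to 1.39 to Lgmn at 0.5 ng. With 3 against 4 libraries the exact test cannot pass (smallest p = 0.0571), so these are values without a test.

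Counts over all genes moved more. At 50 ng 33 genes were called, against 93 without the filter, 3 in the single fit and 11 to 78 when each library was left out (78 without GFAP-IL6 replicate 4). At 10 ng 40 were called, against 64 without the filter, 77 under the block, 62 by DESeq2 and 4 in the single fit. At 1 ng 3 were called, against 11, 7, 13 and 12 in that order. At 0.5 ng 1 was called, against 5 without the filter, 22 by DESeq2 and 655 in the single fit. On summed inputs 63 were called, against 157 without the filter, 180 under the block and 128 by DESeq2. For the interaction at 0.5 ng 24 were called, against 52 without the filter, 4 under the block, 0 with voom and 0 to 14 with each number left out. For input 818 were called at 0.5 ng, against 1319 without the filter and 373 with voom (524 to 760 with each number left out), and 100 at 1 ng, against 166 under the block and 191 with voom (44 to 52). The median over all genes of the 0.5 ng input effect was -0.088, against -0.38 without the filter, -0.25 under the block and -0.48 with voom. At 10 ng 0 were called (65 at an unadjusted p under 0.05), against 6 under the block and 32 with voom. Under the block the Ctss difference was 1.41 at 50 ng and 1.69 on summed inputs, and Ctsz was called on summed inputs (0.54, adjusted p = 0.0191). Same-numbered WT and GFAP-IL6 libraries deviated together with correlations from 0.036 to 0.19 at 50 ng. Between 50 and 10 ng they ran from 0.077 to 0.24 within WT and from 0.052 to 0.51 within GFAP-IL6. The main fits took no pairs, and these values do not settle whether the numbers are pairs. Within a genotype 7 of 8 libraries at 50 ng correlated best with their own number at 10 ng, a hint from the data and not from the labels. Replicate 2 had the lowest and replicate 4 the highest total in each group, and the part of depth in these correlations was not tested. The depth and spread at 1 and 0.5 ng limit Ctsc, Ctsh and Lgmn most.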
